A study of Mus musculus with 336 samples.

Results

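The 10 genes described here were listed by name: Cirbp, Rbm3, Clk1, Clk4, Rsrp1, Pnn, Ogt, Fubp1, Ccnl1 and Ccnl2. Most were selected on the peak of their 24 h wave in fibroblasts, where several had peaked within a few hours of each other in both genotypes in earlier results of these data, and Cirbp, Rbm3 and the Clk genes were added as temperature-sensitive relatives. Gene symbols were matched to the gene IDs of the tables, and all 10 genes were found among 47633 genes in the fibroblast table, 47632 in the liver slice table and 47631 in the short liver table. Since the 24 h wave in fibroblasts helped to choose the genes, it is given below as a description only. Levels, trends, liver rhythms and the short course were not used to choose them and were tested.

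Poly(A) RNA was sequenced from Bmal1-/- mouse cells or tissue (KO) and from wild type (WT), both on a C57BL/6 background. Bmal1, listed as Arntl, encodes a transcription factor of the core circadian clock. KO and WT skin fibroblasts (MSF), and KO and WT liver slices kept in culture from adult mice, were pulsed with 100 nM dexamethasone for 15 min, which aligns the phase of clocks in different cells, and were held at constant temperature in constant darkness. Harvests began 48 h later and ran every 3 h, labelled CT00 to CT69, with 24 time points per genotype. The design text gives n = 3 per time point and genotype, whereas the tables used hold 1 value per gene and time point, and the 3 labelled samples behind it are sequencing runs, so it is not known whether a value stands for 1 culture or slice or for a pool of 3. The separate short liver course had 3 KO and 3 WT replicates at each of T00, T06, T12 and T24, taken here as hours. Its samples, those at T00 among them, carry the same label of 100 nM dexamethasone for 15 min. The labels give neither how many fibroblast lines or animals stand behind each genotype nor whether the short replicates were separate animals, so the spread behind each p-value is that of the libraries given, and it may be partly or wholly technical. KO and WT libraries of each long course were also sequenced in separate pools and lanes, so that genotype and lane cannot be told apart.

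All values are FPKM, read counts scaled by the authors to transcript length and library size, so levels of different genes are compared per length. Sums of FPKM per library were 793270 to 835483 in KO and 793413 to 835364 in WT fibroblasts. In slices they were 766543 to 2121530 in KO and 1024770 to 1535120 in WT. No read counts were among the values used, so the depth behind each value is unknown. Fibroblast markers were high in both fibroblast genotypes, and none of 8 hepatocyte markers averaged 1 FPKM or more there. Arntl had 6.84 ± 0.56 FPKM in KO and 10.6 ± 0.75 FPKM in WT fibroblasts (SD, n = 24 time points each). In slices it had 4.09 ± 0.73 FPKM in KO and 4.50 ± 1.05 FPKM in WT. At T00 of the short course Arntl had 2.74, 2.71 and 3.31 FPKM in KO, against 0.384, 0.126 and 0.392 FPKM in WT, and at T24 it had 1.71, 2.55 and 2.18 FPKM in KO, against 2.34, 3.05 and 2.88 FPKM in WT. These values cover the whole gene and do not separate the deleted part, so they do not check the labels.

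Cirbp and Rbm3 encode small RNA-binding proteins that rise when mammalian cells are cooled by a few degrees, and Cirbp protein has been tied to the strength of clock gene rhythms in mouse fibroblasts. Clk1 and Clk4 encode kinases that phosphorylate SR proteins, the serine- and arginine-rich factors that guide exon choice, and are more active in cooler cells. Pnn (pinin) and Rsrp1 encode proteins with serine- and arginine-rich stretches, and Pnn works in nuclear speckles. Ccnl1 and Ccnl2 encode the L-type cyclins, partners of the splicing-linked kinase Cdk11. Ogt encodes the enzyme that adds O-GlcNAc sugars to nuclear and cytoplasmic proteins, clock proteins among them. Fubp1 encodes a single-strand DNA and RNA binding protein known for its action upstream of Myc. Several of these genes are known to make transcripts that keep introns in the nucleus, which gene-level FPKM does not separate.

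The genes lie on 7 chromosomes of the GRCm38 mouse genome (GENCODE annotation). Clk1 spans chr1:58410189-58424066, Ccnl1 chr3:65946151-65958249 and Rbm3 chrX:8138975-8145880, all on the minus strand. On the plus strand lie Fubp1 at chr3:152210422-152236826, Rsrp1 at chr4:134923592-134927671, Ccnl2 at chr4:155812489-155824543, Cirbp at chr10:80165985-80172786, Clk4 at chr11:51261730-51281766, Pnn at chr12:59066884-59073998 and Ogt at chrX:101640060-101684351. Rbm3, Ccnl1 and Clk4 overlap others: Rbm3 shares 452 bases with the antisense gene Rbm3os, Ccnl1 shares 492 bases with the antisense Gm37305, and Clk4 shares 1317 bases with BC049762 on the other strand and 255 bases with the small RNA gene Gm25082 on its own strand. The libraries were stranded, but the strand setting of the counting is not given in the sources used here, so reads from these pairs may not be fully separated. The partners averaged well below the members: Rbm3os 0.907, 0.713 and 0.215 FPKM, Gm37305 1.24, 0.968 and 0.637 FPKM, and Gm25082 7.16, 2.89 and 4.32 FPKM, in fibroblasts, slices and the short course.

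RefSeq promoter windows of 300 bases (250 before to 50 after the transcription start, GRCm38.p6) were held for 8 of the 10 genes and searched on both strands for 6 short motifs. The stretches below are shown because Cirbp is the member known for its response to cold, Ccnl1 one of the 2 members with the largest changes in the short liver course, and Clk4 the only other member with the element found in Ccnl1. Cirbp carried the mild-cold element TCCCCGCC, described upstream of this gene, 247 bases before the start, and 5.38% of all 32851 windows carried it. Ccnl1 and Clk4 each carried the cAMP response element TGACGTCA, found in 1.79% of windows, at 18 and 65 bases before the start. No member window held the clock-bound E-box CACGTG (7.15% of windows), the D-box TTATGTAA (0.938%), the AP-1 site TGACTCA (5.20%) or the heat shock element bound by HSF1 (0.603%). A match is a description of letters and not a shown binding site. The stretches run 5′ to 3′ on the gene's strand with the element in capitals, and are cut so as to hold no exon of the gene. They are Cirbp chr10:80167589-80167777 (plus strand, 189 bases, inside the annotated gene span), Ccnl1 chr3:65958250-65958499 (minus strand, 250 bases, overlapping the antisense Gm37305) and Clk4 chr11:51263047-51263113 (plus strand, 67 bases).
Cirbp: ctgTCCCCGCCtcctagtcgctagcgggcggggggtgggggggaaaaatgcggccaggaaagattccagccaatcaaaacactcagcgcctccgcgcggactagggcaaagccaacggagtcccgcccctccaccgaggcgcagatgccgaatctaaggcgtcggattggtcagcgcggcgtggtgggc
Ccnl1: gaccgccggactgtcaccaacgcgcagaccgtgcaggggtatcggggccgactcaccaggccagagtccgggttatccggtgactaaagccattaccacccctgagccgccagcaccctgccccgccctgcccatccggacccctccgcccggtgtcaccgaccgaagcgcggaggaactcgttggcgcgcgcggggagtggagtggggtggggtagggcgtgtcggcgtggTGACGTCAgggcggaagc
Clk4: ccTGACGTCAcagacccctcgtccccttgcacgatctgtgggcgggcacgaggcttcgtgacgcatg

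The first comparison asked whether the genes were set at different levels in fibroblasts that lack Bmal1. Both temperature-linked kinases, the cold-inducible Cirbp and Ogt were higher in KO, with no overlap between the 24 KO and 24 WT time points. Fubp1 was lower in KO at all 24 matched times. The share of all genes without overlap was not counted, so this is not shown to be particular to the members. Differences are on the log2(FPKM + 1) scale, KO minus WT, with limma's moderated test across all genes and Benjamini-Hochberg adjustment. A call needed an adjusted p under 0.05 and a difference of at least 1, and 16% of all genes met both (6.21% higher and 9.83% lower in KO). Of the members only Clk1 met both. All 10 passed the adjusted p alone, as did 81.2% of all genes: Cirbp, Clk1, Clk4, Rsrp1, Pnn, Ogt and Ccnl2 were higher in KO (37.3% of all genes) and Rbm3, Fubp1 and Ccnl1 lower (43.9%). The median difference was 0.24 over the members and -0.04 over all genes.

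Clk1 ran at 110.2 to 139.0 FPKM in KO fibroblasts (median 125.3), against 45.1 to 58.4 FPKM in WT (median 50.9). The lowest KO value lay well above the highest WT value, and the difference was 1.27 ± 0.02 (SE; adjusted p = 9.92e-40, limma). Clk4, its close relative, ran at 55.1 to 69.7 FPKM in KO (median 61.8), against 29.4 to 43.8 FPKM in WT (median 36.5), a difference of 0.73 ± 0.03. Each kinase stood higher in every KO library than in any WT library.

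Cirbp ran at 25.6 to 36.6 FPKM in KO fibroblasts (median 31.6), against 14.1 to 22.8 FPKM in WT (median 16.3). The groups did not overlap, and the difference of 0.91 ± 0.04 stayed just under the size limit (adjusted p = 1.28e-24, limma). Rbm3, the other cold-inducible gene, went the opposite way: it ran at 12.2 to 18.8 FPKM in KO (median 15.0), against 13.7 to 21.7 FPKM in WT (median 17.4), a difference of -0.21 ± 0.04. The Rbm3 ranges overlapped, although KO lay above WT at only 2 of 24 matched times.

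Ogt ran at 86.7 to 115.2 FPKM in KO fibroblasts (median 101.1), against 50.2 to 68.6 FPKM in WT (median 61.3), with no overlap and a difference of 0.73 ± 0.03. Fubp1 ran at 40.0 to 61.8 FPKM in KO (median 49.6), against 59.6 to 86.5 FPKM in WT (median 72.1), a difference of -0.51 ± 0.03. Fubp1 was lower in KO at every matched time although the outer ends of the ranges met. Among the SR-like genes, Pnn had 29.3 ± 1.56 FPKM in KO and 23.4 ± 1.37 FPKM in WT (SD, n = 24 each; difference 0.31 ± 0.02), and was higher in KO at all 24 times. Rsrp1, the most abundant member, had 249.8 ± 18.3 FPKM in KO and 222.5 ± 20.3 FPKM in WT (difference 0.17 ± 0.02).

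The L-type cyclins split. Ccnl1 had 46.8 ± 2.69 FPKM in KO and 53.2 ± 3.36 FPKM in WT fibroblasts, a difference of -0.18 ± 0.02, with KO above WT at 1 of 24 times. Ccnl2 had 48.7 ± 2.79 FPKM in KO and 45.4 ± 2.82 FPKM in WT, a difference of 0.10 ± 0.02, with KO above WT at 18 of 24 times. The order of levels was Rsrp1, Clk1, Ogt, Clk4, Fubp1, Ccnl2, Ccnl1, Cirbp, Pnn and Rbm3 in KO. In WT it was Rsrp1, Fubp1, Ogt, Ccnl1, Clk1, Ccnl2, Clk4, Pnn, Rbm3 and Cirbp, and neighbours such as Ccnl1 and Clk1, or Rbm3 and Cirbp, differed by less than their SDs. In KO the same held for Fubp1, Ccnl2 and Ccnl1 and for Cirbp and Pnn.

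The labels give each fibroblast time point its own TruSeq LT adapter index, the same in KO and WT. As background, that kit is sold in an A and a B set, and the indices of CT00 to CT33 are those of set A and those of CT36 to CT69 those of set B. The labels name no set and no preparation date, so these earlier and later segments of the course are given apart without being known batches. Within the earlier and later segment, the KO minus WT difference was 1.18 and 1.38 for Clk1, 0.73 and 0.75 for Clk4, 0.92 and 0.90 for Cirbp, and 0.80 and 0.67 for Ogt. It was -0.33 and -0.71 for Fubp1 and -0.15 and -0.24 for Rbm3. The Ccnl2 difference held in the earlier segment (0.19) and not in the later (0.01, adjusted p = 0.633, limma). Marker genes of cell types also differed between the fibroblast genotypes. The summed level of 5 fibroblast markers was 3164 to 5064 FPKM in KO and 1823 to 2295 FPKM in WT, and mostly followed Dcn. KO means were higher than WT for Dcn (3817 against 1046 FPKM) and Lum (127 against 71.9 FPKM). They were lower for Thy1 (89.2 against 507 FPKM), Pdgfra (161 against 439 FPKM) and Pdgfrb (46.9 against 75.6 FPKM). Stellate and smooth muscle markers had median sums of 146 FPKM in KO and 303 FPKM in WT. Biliary epithelial markers had 99.5 FPKM in KO and 23.2 FPKM in WT. The biliary sum came almost wholly from Krt19 (means of 79.5 and 7.60 FPKM) and Sox9 (22.4 and 17.4 FPKM). In bulk samples a change in the mix of cells and a change in RNA per cell cannot be told apart, and the part of these markers in the results was not tested.

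**Figure D1:**
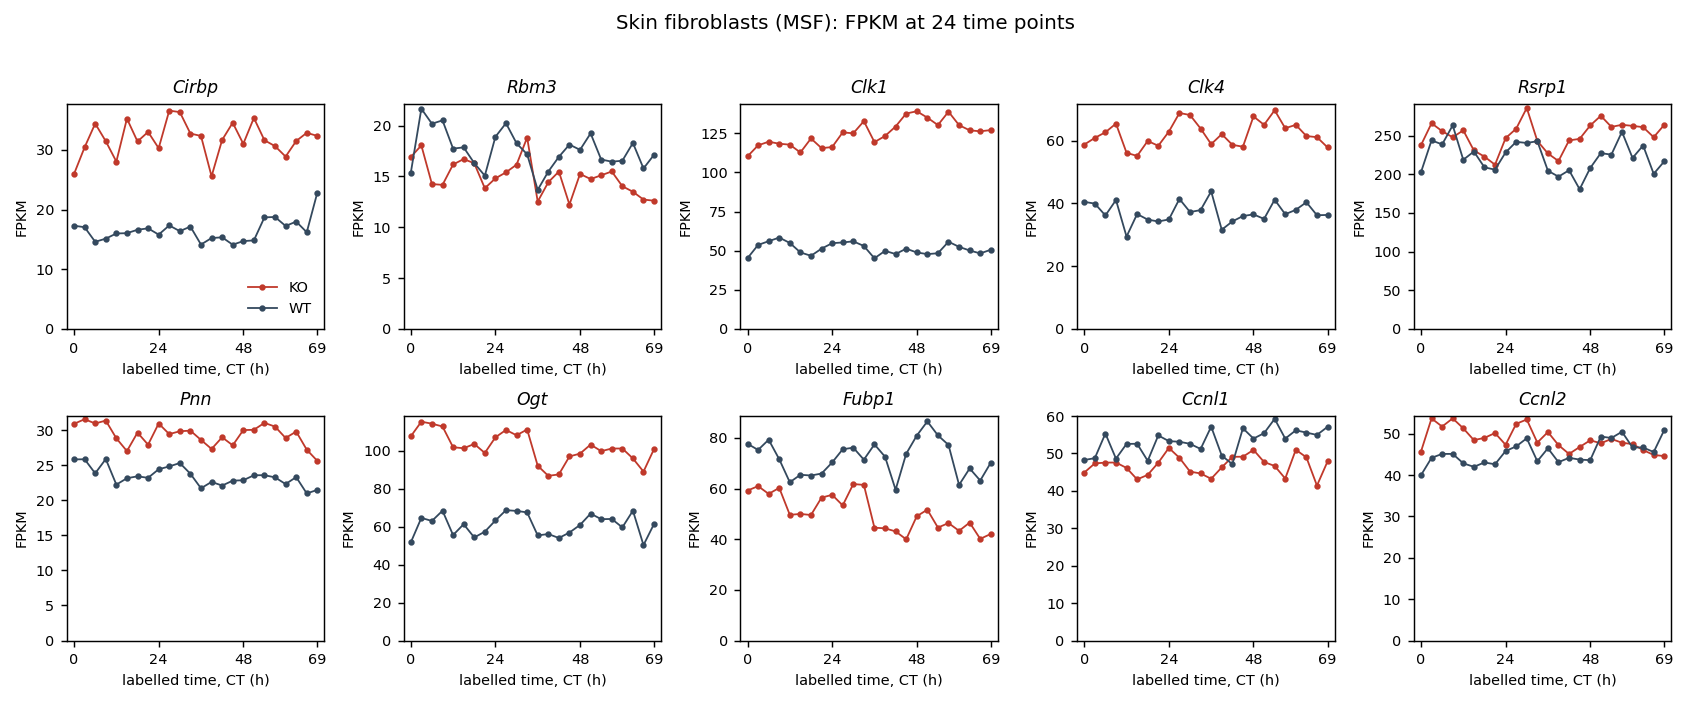
FPKM of each member against labelled time (CT, h) in KO and WT fibroblasts, 1 point per time point and genotype, with each vertical axis starting at 0. Clk1, Clk4, Cirbp and Ogt lie higher in KO with no overlap, Fubp1 lies lower, and the daily swings are small beside the level of each gene.

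Genes of the surrounding pathways were mostly below the size limit in fibroblasts. None of 6 other SR protein kinases, 12 SR proteins, 14 nuclear speckle proteins, 8 transcription and splicing cyclins or kinases and 4 cold shock domain proteins met both limits, although all of them except 2 speckle proteins passed the adjusted p alone (limma). The medians were -0.22 for the SR protein kinases and -0.29 for the SR proteins. Of 4 nuclear long noncoding RNAs, Meg3 (1.44) and Neat1 (1.22) were higher in KO. Of 6 genes of O-GlcNAc cycling and hexosamine synthesis, Gfpt2, a rate-limiting enzyme of hexosamine synthesis, was higher in KO (1.43), with 22.9 ± 3.01 FPKM in KO and 7.90 ± 1.29 FPKM in WT. Myc, the Fubp1 target, was lower in KO (-1.22), with 23.8 ± 2.30 FPKM in KO and 56.5 ± 3.07 FPKM in WT. Of 12 heat shock genes driven by HSF1, Hsph1 (-1.77) and Hspa1b (-1.40) were lower in KO, and the list's median was -0.71.

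The daily course of the members in fibroblasts is what helped to choose them, and is described here without a test. A 24 h wave fitted on the log2 scale, with a straight trend, had its peak between 4 and 7 h in both genotypes for 5 of the 10: Rbm3 (6.76 h in KO, 4.12 h in WT), Clk4 (5.27 and 5.67 h), Pnn (5.50 and 4.25 h), Ogt (4.85 and 5.99 h) and Fubp1 (4.80 and 4.13 h). The same held for 352 of 13547 genes (2.60%). Just outside lay Clk1 (4.95 h in KO, 7.04 h in WT), Rsrp1 (5.00 and 7.31 h) and Ccnl2 (7.19 and 5.77 h). Cirbp (3.46 and 2.81 h) peaked earlier in both, and Ccnl1 peaked at 0.897 h in KO and 5.13 h in WT. The name given to the group covers all of its members only loosely in phase.

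The waves were small. Fitted amplitudes were 0.04 to 0.13 log2 units in KO and 0.03 to 0.16 in WT, largest for Fubp1 in both (0.13 and 0.16) and smallest for Clk1 in KO (0.04) and Cirbp in WT (0.03). The medians over the members were 0.06 in KO and 0.07 in WT, beside 0.05 over all genes in each genotype. Ogt averaged 109.7 ± 6.10 FPKM at clock time 3 h and 93.2 ± 8.86 FPKM at 18 h in KO (SD over the 3 days), and 66.6 ± 2.04 and 52.8 ± 2.24 FPKM at the same clock times in WT. Fubp1 in KO averaged 56.0 ± 8.38 FPKM at its highest clock time, 9 h, and 44.3 ± 4.82 FPKM at its lowest, 18 h, and in WT 79.1 ± 6.43 FPKM at 3 h and 62.6 ± 2.85 FPKM at 18 h. Rsrp1 in KO averaged 267.5 ± 15.9 FPKM at 6 h and 236.1 ± 22.4 FPKM at 15 h, and in WT 253.5 ± 10.3 FPKM at 9 h and 201.0 ± 18.5 FPKM at 21 h. Across the members the highest clock time stood 1.07 to 1.27 times above the lowest.

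The wave repeated unevenly between the earlier and later segments. Fubp1 peaked at 4.48 h (CT00 to CT33) and 5.24 h (CT36 to CT69) in KO and at 4.03 and 4.17 h in WT, and Ogt at 5.48 and 4.65 h in KO and 6.47 and 5.58 h in WT. Cirbp in WT instead peaked at 22.3 h in the earlier segment and 8.85 h in the later. Rbm3 was also unsteady, at 10.6 and 5.83 h in KO and 6.37 and 0.724 h in WT. Its fitted amplitude over the whole KO course was 0.06 ± 0.04 (SE), so its phase there is poorly fixed. The authors' table also gives a confidence interval for each value, whose half-width had a median of 14.1% to 28.8% of the FPKM depending on the gene, wider than most of these waves.

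Beside the wave, several members drifted over the 3 days. In KO fibroblasts 6 of the 10 had a called linear trend (adjusted p under 0.05, limma), where 26.4% of all genes did (14.4% rising, 11.9% falling): Clk1 (0.09 log2 units per day), Rsrp1 (0.06) and Clk4 (0.05) rose, and Fubp1 (-0.14), Ogt (-0.05) and Ccnl2 (-0.05) fell. In WT 3 of the 10 were called, where 31.1% of all genes were (14.5% rising, 16.6% falling): Ccnl2 (0.08) and Ccnl1 (0.07) rose and Pnn (-0.05) fell. Whether the trends differed between genotypes was not tested. No member's trend was called within either segment alone. Fubp1 in KO averaged 44.7 ± 3.42 FPKM over CT36 to CT69 and 56.5 ± 4.72 FPKM over CT00 to CT33, and its value was 44.6 FPKM at CT36 against 61.5 FPKM at CT33. Ogt in KO likewise had 92.0 FPKM at CT36 and 111.1 FPKM at CT33. Over the members the ratio of CT36 to CT33 had a median of 0.928 in KO and 0.882 in WT, beside 0.995 and 1.01 over all genes, and 9 members in KO and 6 in WT were lower at CT36. CT33 and CT36 are clock times 9 and 12 h, after the near peaks that helped to choose the members. That choice already favours a ratio below 1. Over the 3 days Fubp1 in KO averaged 56.0 FPKM at 9 h and 45.8 FPKM at 12 h, and Ogt in KO 108.2 and 98.2 FPKM. Time, the chosen wave and adapter indices cannot be told apart at that step.

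In cultured liver slices the question was whether the same genes cycled and whether their levels differed, in a tissue that the choice of genes had not used. Levels overlapped between genotypes for every member and no member met both limits for a genotype difference, where 5.23% of all genes did. With the adjusted p alone 5 of 10 passed: Rbm3, Ogt and Fubp1 were lower in KO (Ogt and Fubp1 only before the rescaling described next) and Clk1 and Clk4 were higher, where 72.8% of all genes passed (6.39% higher and 66.4% lower in KO). The whole KO table sat lower, with a median difference of -0.34 over all genes and -0.02 over the members. After rescaling each library by its median ratio to the average library, the median over all genes was -0.003 and over the members 0.37.

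Rbm3 ran at 4.32 to 10.5 FPKM in KO slices and 7.48 to 15.7 FPKM in WT, with means of 7.17 ± 1.41 and 11.05 ± 1.80 FPKM (SD, n = 24 time points each). It was lower in KO at all 24 times (-0.57 ± 0.07, adjusted p = 8.28e-10, limma), and stayed lower after rescaling (-0.21, adjusted p = 0.00783). Cirbp had 22.6 ± 9.13 FPKM in KO, between 10.3 and 52.4, and 25.9 ± 6.23 FPKM in WT, between 17.2 and 42.7. Its difference of -0.24 was not called (adjusted p = 0.0549) and was 0.14 after rescaling (adjusted p = 0.292). The cold-inducible genes are given side by side with fibroblasts only, since the tables were normalized separately.

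Clk1, the second most abundant member in slices after Rsrp1, had 213.9 ± 43.5 FPKM in KO and 163.8 ± 33.1 FPKM in WT and was higher in KO at 21 of 24 times (0.39 ± 0.08, adjusted p = 6.17e-05, limma; 0.79 rescaled). Clk4 had 47.2 ± 6.98 FPKM in KO and 41.7 ± 5.76 FPKM in WT (0.17 ± 0.06, adjusted p = 0.00808; 0.56 rescaled). Both kinases kept their direction under the rescaling. Ogt had 25.01 ± 8.31 FPKM in KO and 29.8 ± 5.39 FPKM in WT (-0.31 ± 0.11, adjusted p = 0.0112; 0.08 rescaled), and Fubp1 67.0 ± 9.41 FPKM in KO and 81.2 ± 18.3 FPKM in WT (-0.25 ± 0.06, adjusted p = 0.000149; 0.15 rescaled). For Ogt and Fubp1 the sign turned with the rescaling. Rsrp1 had 272.7 ± 57.9 FPKM in KO and 251.8 ± 42.1 FPKM in WT, Pnn 19.5 ± 3.51 and 18.9 ± 1.90 FPKM, Ccnl1 91.1 ± 16.1 and 87.1 ± 16.6 FPKM, and Ccnl2 61.8 ± 19.95 and 63.2 ± 16.1 FPKM, with no call. Before rescaling their differences were 0.11, 0.03, 0.07 and -0.06. The sign of Ccnl2 also turned with the rescaling, which moved the median over the members from -0.02 to 0.37. Equal levels of these genes in KO and WT are thus not shown.

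**Figure D2:**
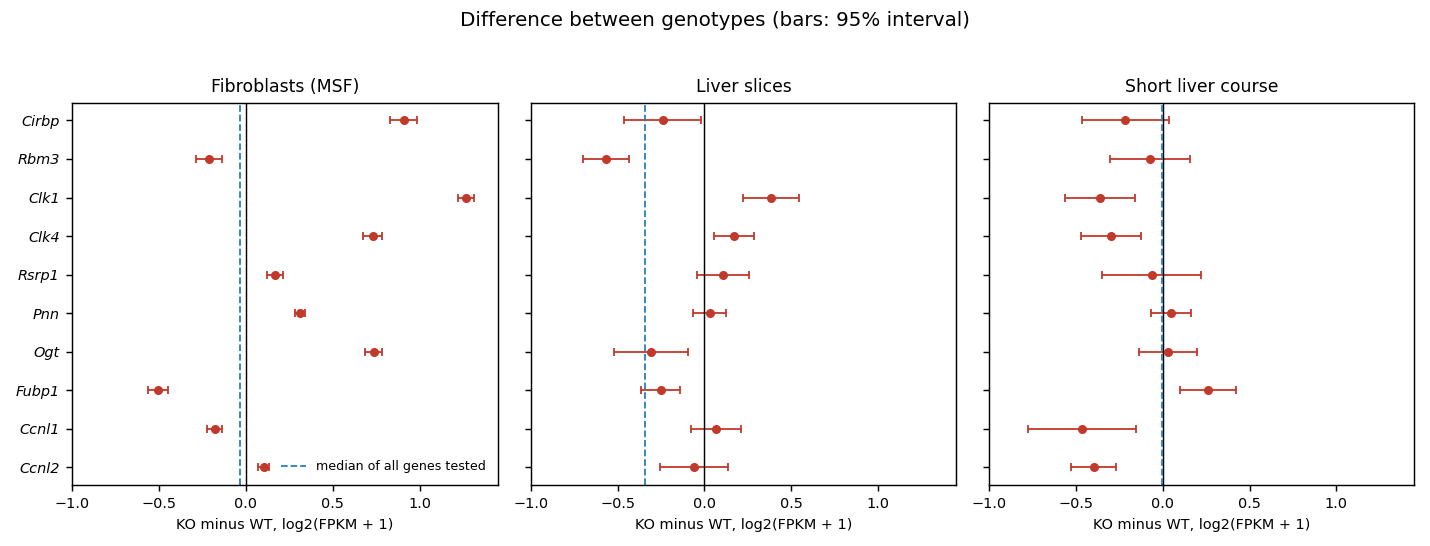
KO minus WT difference of each member on the log2(FPKM + 1) scale in fibroblasts, liver slices and the short liver course, with 95% intervals from the fitted standard error; the dashed line is the median over all genes tested. Clk1 stands at 1.27 in fibroblasts and 0.39 in slices, and at -0.36 in the short course.

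Cell type markers differed between the slice genotypes as well. The summed level of 8 macrophage markers was 71.2 to 408 FPKM in KO (median 167) and 205 to 4657 FPKM in WT (median 888). Fibroblast markers had median sums of 44.2 FPKM in KO and 187 FPKM in WT. The hepatocyte sums were close (9260 and 8478 FPKM), although single hepatocyte markers went opposite ways. Serpinc1 averaged 1239 ± 1705 FPKM in KO and 316 ± 277 FPKM in WT (SD), and Hnf4a 14.4 ± 7.11 and 38.9 ± 20.7 FPKM. Their part in the differences was not tested.

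Of the 10 members, Ccnl2 alone had a called 24 h rhythm in KO slices (1 of 10, where 11.2% of all genes were called), and no member had one in WT slices, where 1.98% of all genes were called. Ccnl2 in KO had an amplitude of 0.44 ± 0.11 log2 units and a peak at 2.62 h (adjusted p = 0.0347, limma). It ran at 31.5 to 108.1 FPKM in KO (median 63.6), and at 34.5 to 100.1 FPKM in WT (median 61.8). At clock time 6 h its KO values were 63.9, 108.1 and 78.0 FPKM on the 3 days, and at 15 h they were 49.9, 35.1 and 37.0 FPKM. The KO mean was 83.3 ± 22.6 FPKM at 6 h and 40.3 ± 8.43 FPKM at 15 h, and the 2 sets of 3 did not overlap. These were the highest and lowest clock-time means, so a gap between them was favoured by that choice. The KO mean was already 50.3 ± 16.6 FPKM at 9 h. In WT the Ccnl2 amplitude was 0.17 ± 0.09 with a peak at 5.92 h (adjusted p = 0.535). The size of the difference between the waves, which cannot be negative, was 0.35 ± 0.14 and was not called (adjusted p = 0.240, limma; unadjusted p = 0.0606). Cell type markers in the same KO libraries had called waves of near phase: 4 of 7 macrophage markers tested, among them C1qa (amplitude 0.99, peak 3.88 h), C1qc (0.77, 3.73 h) and Csf1r (0.48, 3.03 h), and 3 of 8 fibroblast markers, Col1a1 (1.32, 4.33 h), Col3a1 (1.88, 4.68 h) and Pdgfrb (0.59, 3.84 h). Their part in the Ccnl2 wave was not tested.

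The Ccnl2 call depended on single time points. It was lost when CT15, CT27, CT30, CT39, CT42, CT48, CT54, CT63 or CT66 was left out, and without day 2 or day 3 (adjusted p = 0.315 and 0.370, limma), but not without day 1 (adjusted p = 0.00488). The KO libraries at CT09, CT39 and CT42 had low Ccnl2 (31.5, 34.0 and 35.1 FPKM) and low Ogt (9.89, 11.7 and 12.9 FPKM). In the same libraries the 10 most abundant genes took 49.6%, 58.0% and 52.9% of the summed FPKM, where the KO range was 40.3% to 58.0% and the WT range 35.4% to 49.2%, and the median correlation with the other libraries was among the lowest (0.858, 0.871 and 0.874). Without these 3 and CT27, the 4 KO libraries of lowest correlation, the amplitude of Ccnl2 was 0.36 (adjusted p = 0.112), a choice made after seeing the data. Over the alternative settings other than single time points the adjusted p ran between 0.00488 and 0.554.

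Pnn in KO slices came close to a call with the opposite phase, an amplitude of 0.22 ± 0.06 and a peak at 16.2 h (adjusted p = 0.0548, limma). In KO its highest clock-time mean was 23.3 ± 4.43 FPKM at 18 h and its lowest 16.9 ± 0.48 FPKM at 6 h. In WT no clock time mean left 17.8 to 19.6 FPKM. Krt7, 1 of 4 biliary markers and the only one of them called, peaked at 16.4 h (amplitude 0.56), and its part was not tested. The wave difference of Pnn was 0.22 ± 0.07 (adjusted p = 0.112). Ogt in KO had an amplitude of 0.39 ± 0.14 peaking at 2.49 h (adjusted p = 0.125) and Cirbp 0.32 ± 0.13 peaking at 5.32 h (adjusted p = 0.221), and neither was called. The remaining KO amplitudes were 0.05 to 0.16. In WT the nearest was Fubp1, 0.16 ± 0.06 with a peak at 5.69 h (adjusted p = 0.232), the only member with an unadjusted p under 0.05 there. No member's wave differed between genotypes at the threshold, where 4.13% of all genes did, and 1 member, Pnn, had an unadjusted p under 0.05. The median amplitude of the members was 0.16 in KO and 0.09 in WT, beside 0.19 and 0.12 over all genes.

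**Figure D3:**
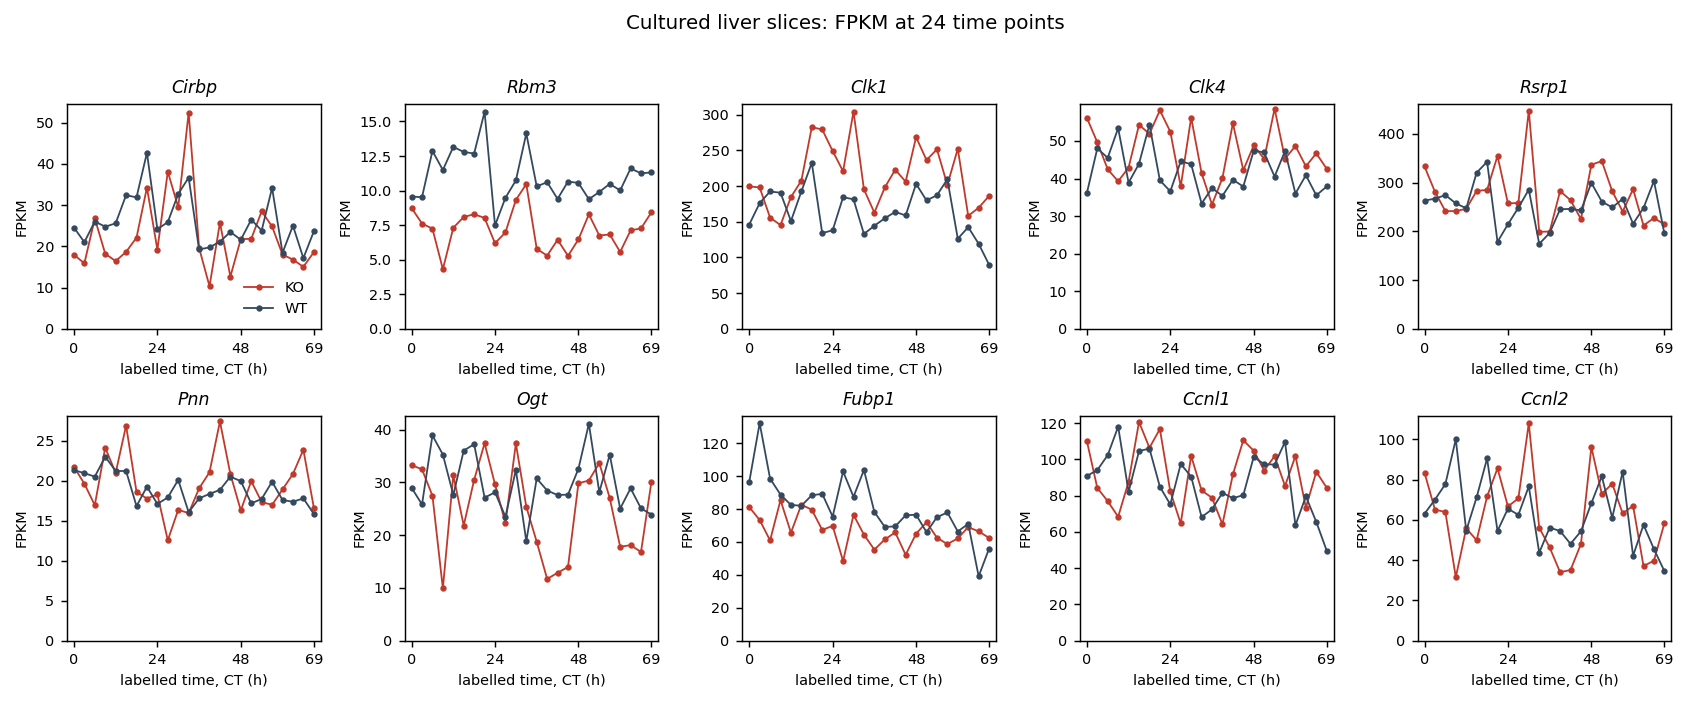
FPKM of each member against labelled time (CT, h) in KO and WT liver slices, 1 point per time point and genotype, with each vertical axis starting at 0. Ccnl2 and Ogt in KO dip together near CT09 and CT39 to CT42, Rbm3 lies lower in KO at every time, and Fubp1 in WT declines over the 3 days.

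Across the 3 days Fubp1 fell in WT slices by 0.26 ± 0.05 log2 units per day (adjusted p = 0.000951, limma) and Pnn by 0.09 ± 0.03 (adjusted p = 0.0392). The Pnn call was lost when any of 11 of the 24 time points was left out (adjusted p up to 0.0968). These were 2 of 10 members, both falling, where 20.2% of all genes were called, 9.85% rising and 10.3% falling. Fubp1 in WT was 132.3 FPKM at its highest, CT03, and 39.1 FPKM at its lowest, CT66. In KO slices no member was called, where 5.75% of all genes were, and Fubp1 (-0.11 per day, adjusted p = 0.220) was the only one with an unadjusted p under 0.05. Over the 24 WT libraries Fubp1 correlated with the summed hepatocyte markers (Pearson's r = 0.72) and inversely with the summed macrophage markers (r = -0.85), which come from the same libraries and share the drift. Their part in the fall of Fubp1 was not tested. Of the other lists in WT slices, 8 of 12 SR proteins fell (Srsf7 by 0.27, Srsf2 by 0.26 and Srsf1 by 0.21 per day), as did 8 of 14 speckle proteins (Rbm25 by 0.40, Luc7l by 0.24 and Son by 0.22), and none rose.

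Rhythmic genes named from the other lists in KO slices, at most 3 per list, peaked near 2 to 4 h or near 16 h. Malat1 (amplitude 0.62, peak 1.97 h), Neat1 (0.58, 2.77 h), Srrm2 (0.33, 1.98 h) and Cdk10 (0.76, 3.61 h) peaked near Ccnl2. Dyrk1a (0.37, 16.3 h), Gfpt1 (0.33, 16.7 h), Ccnk (0.28, 16.5 h), Cdk13 (0.23, 16.4 h), Ybx3 (0.24, 15.8 h) and Dnaja1 (0.54, 16.1 h) peaked near Pnn. By list, beside 11.2% of all genes, 4 of 8 cyclins and kinases, 2 of 4 noncoding RNAs, 1 of 14 speckle proteins, 1 of 6 SR protein kinases, 1 of 6 O-GlcNAc genes, 1 of 4 cold shock domain genes, 1 of 12 heat shock genes and none of 12 SR proteins were called, and no list was tested against that share. The macrophage, fibroblast and biliary markers given above peaked near 3 to 5 h or near 16 h. Without the 4 KO libraries of lowest correlation none of the 10 genes named in this paragraph was called (adjusted p = 0.0628 to 0.186, limma).

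The short liver course, labelled with the same dexamethasone pulse, asked how the genes moved over a day with 3 replicates at each time. Over the 4 times 7 of 10 members in KO and 6 of 10 in WT passed the test (adjusted p under 0.05, limma F test), close to the 72.2% in KO and 64.4% in WT of all genes. The largest changes among the members were rises of Ccnl1 and Fubp1 in both genotypes. Changes below are log2 differences from T00.

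Ccnl1 had 21.98, 22.2 and 22.4 FPKM at T00 in KO, 91.1, 120.0 and 130.8 FPKM at T06, 158.6, 108.3 and 82.7 FPKM at T12 and 107.4, 56.2 and 147.7 FPKM at T24. In WT it had 24.7, 27.5 and 19.9 FPKM at T00, 103.0, 142.9 and 113.0 FPKM at T06, 134.9, 289.7 and 228.1 FPKM at T12 and 132.5, 217.0 and 169.1 FPKM at T24. Every later sample lay above every T00 sample of its genotype. The change was 2.29 ± 0.32 at T06 in KO (adjusted p = 7.25e-06 over the 4 times) and 3.07 ± 0.32 at T12 in WT (adjusted p = 7.89e-07). Clk4, which carries the same cAMP response element in its promoter stretch, was not called for time. A part of the element in these courses was not tested. Myc, an early response gene and target of Fubp1, rose too, by 4.0 in KO and 3.27 in WT, and a link between the 2 was not tested.

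Fubp1 climbed at each step. In KO it had 12.99, 12.3 and 14.5 FPKM at T00, 28.9, 20.1 and 23.7 FPKM at T06, 34.6, 45.5 and 32.9 FPKM at T12 and 53.3, 87.2 and 75.5 FPKM at T24. In WT it had 12.4, 13.8 and 13.5 FPKM at T00, 22.8, 23.3 and 18.5 FPKM at T06, 30.2, 32.9 and 34.1 FPKM at T12 and 40.2, 47.2 and 44.3 FPKM at T24. The sets of 3 did not overlap from one time to the next in either genotype. At T24 the change was 2.33 ± 0.17 in KO (adjusted p = 1.31e-08) and 1.66 ± 0.17 in WT (adjusted p = 8.10e-07). The gap between these changes, 0.67 ± 0.23, was not called.

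Clk1 was highest on average at T12 in both genotypes. Its KO values were 64.5, 35.3 and 42.7 FPKM at T00, 78.3, 72.4 and 92.4 FPKM at T06, 101.8, 100.1 and 76.4 FPKM at T12 and 56.5, 54.3 and 67.7 FPKM at T24. Its WT values were 59.5, 61.0 and 50.4 FPKM at T00, 82.2, 80.3 and 78.1 FPKM at T06, 91.3, 163.5 and 141.8 FPKM at T12 and 93.1, 96.0 and 98.1 FPKM at T24. The change at T12 was 0.98 ± 0.20 in KO (adjusted p = 0.00123) and 1.16 ± 0.20 in WT (adjusted p = 0.000666). Clk4 was not called for time in either genotype, with 19.3 to 32.3 FPKM at T00 and 26.9 to 27.7 FPKM at T12 in KO, and 29.5 to 36.1 FPKM at T00 and 35.6 to 53.7 FPKM at T12 in WT. Rsrp1 was not called either, with 115.4 to 178.3 FPKM at T00 and 164.5 to 303.5 FPKM at T12 in KO, and 174.3 to 211.0 and 153.6 to 271.3 FPKM in WT.

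Ogt was highest at T24. In KO it had 11.4, 12.3 and 14.1 FPKM at T00 and 20.3, 29.5 and 24.4 FPKM at T24, and in WT 13.2, 14.04 and 11.1 FPKM at T00 and 14.5, 22.8 and 16.4 FPKM at T24. The change was 0.91 ± 0.17 in KO (adjusted p = 4.15e-05) and 0.44 ± 0.17 in WT (adjusted p = 0.0108). Ccnl2, unlike Ccnl1, ended lower. In KO it had 26.4, 22.97 and 27.8 FPKM at T00 and 17.5, 15.95 and 20.4 FPKM at T24 (-0.50 ± 0.13, adjusted p = 0.0104), and in WT 44.1, 39.9 and 32.4 FPKM at T00 and 21.6, 24.9 and 21.5 FPKM at T24 (-0.74 ± 0.13, adjusted p = 0.000397). The T24 and T00 values of Ccnl2 did not overlap in either genotype.

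The cold-inducible pair differed in their calls. Rbm3 in KO had 3.20, 3.32 and 3.10 FPKM at T00, 4.61, 5.17 and 5.62 FPKM at T06, 4.55, 9.66 and 4.32 FPKM at T12 and 5.00, 7.39 and 10.3 FPKM at T24 (0.98 ± 0.23 at T24, adjusted p = 0.00770). In WT Rbm3 had 5.00, 4.62 and 3.74 FPKM at T00 and 5.58, 7.12 and 5.32 FPKM at T24 (0.36 ± 0.23), which was not called. Cirbp was called in neither, with 6.88, 10.3 and 8.64 FPKM at T00 and 3.78, 7.85 and 5.14 FPKM at T24 in KO (-0.58 ± 0.25), and 8.32, 7.37 and 10.6 FPKM at T00 and 6.20, 5.82 and 7.18 FPKM at T24 in WT (-0.39 ± 0.25). No test showed that the Rbm3 changes differed between genotypes.

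Pnn was the only member whose time course differed between genotypes (interaction, adjusted p = 0.0188, limma), where 1.75% of all genes were called. In KO it had 9.80, 8.32 and 8.83 FPKM at T00, 13.4, 10.6 and 12.4 FPKM at T06, 8.26, 9.44 and 9.05 FPKM at T12 and 9.34, 12.8 and 11.1 FPKM at T24. In WT it had 12.9, 13.7 and 10.6 FPKM at T00, 12.8, 12.8 and 10.5 FPKM at T06, 8.50, 8.95 and 9.02 FPKM at T12 and 7.24, 6.47 and 7.35 FPKM at T24. KO lay below WT at T00 and above it at T24, without overlap at either time. The change from T00 to T24 was 0.27 ± 0.12 in KO and -0.73 ± 0.12 in WT, a difference of 1.00 ± 0.17, and in KO the largest change was 0.39 ± 0.12 at T06 (adjusted p = 0.0108 for time in KO and 7.74e-05 in WT). With any 1 replicate number left out, the interaction kept its sign (0.73 to 1.16) and was not called (adjusted p = 0.129 to 0.523).

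Averaged over the 4 times, 5 members differed between genotypes (adjusted p under 0.05, limma, with no size limit), where 18.7% of all genes did (7.76% higher and 11% lower in KO). Ccnl1 (-0.46 ± 0.16, adjusted p = 0.0495), Ccnl2 (-0.40 ± 0.07, adjusted p = 0.000293), Clk1 (-0.36 ± 0.10, adjusted p = 0.0187) and Clk4 (-0.30 ± 0.09, adjusted p = 0.0257) were lower in KO, and Fubp1 (0.26 ± 0.08, adjusted p = 0.0350) was higher. The median was -0.14 over the members and -0.01 over all genes. For Ccnl2, Clk1, Clk4 and Fubp1, 4 of these 5, the sign is opposite to that in fibroblasts, where Ccnl2 was higher in KO by 0.10, and only Ccnl1 was lower in KO in both. The 2 tables were normalized separately. Without replicate number 3 only Ccnl2 passed, and none passed when each genotype and number was reduced to 1 mean.

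**Figure D4:**
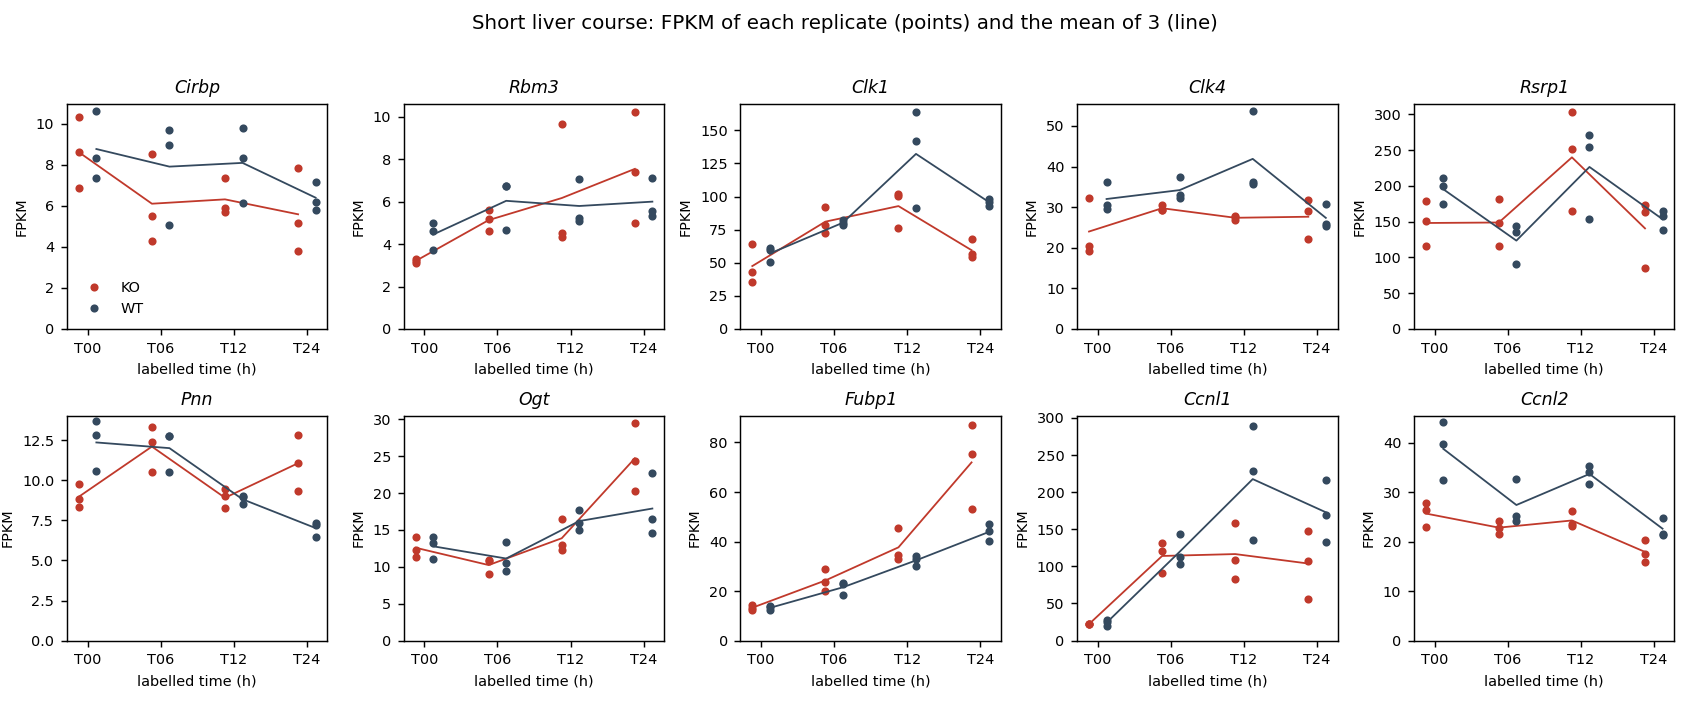
FPKM of each member in the short liver course at T00, T06, T12 and T24, with 1 point per replicate and a line through the mean of 3, KO and WT side by side, each vertical axis starting at 0. Ccnl1 and Fubp1 climb from T00 in both genotypes, and Pnn at T24 lies at 9.34 to 12.8 FPKM in KO and 6.47 to 7.35 FPKM in WT.

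Cell type markers moved over the same times. The summed level of 6 endothelial markers averaged 36.7 FPKM at T00 and 205.3 FPKM at T06 in KO, and 40.6 and 208.8 FPKM in WT, and hepatocyte markers averaged 21981 FPKM at T00 and 10084 FPKM at T24 in KO, and 19141 and 14501 FPKM in WT. Macrophage markers averaged 130 FPKM at T00 and 216 FPKM at T06 in KO, and 176 and 322 FPKM in WT. Their part in the changes over time was not tested. Related lists are given beside the same shares of all genes, 72.2% in KO and 64.4% in WT. Called for time were 10 of 12 SR proteins in KO and 9 in WT, 13 of 14 speckle proteins in both, 4 of 6 SR protein kinases in KO and 3 in WT, 7 of 8 cyclins and kinases in KO and 5 in WT, 5 of 6 O-GlcNAc genes in KO and 6 in WT and 8 of 12 heat shock genes in both. The SR protein kinases and heat shock genes lay near those shares, and no list was tested against them. Genes with called changes included Hspa1a (4.71 in KO, 3.90 in WT), Gfpt2 (3.07 and 2.71) and Malat1 (2.78 and 1.86).

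How far the members moved together within a course was described by Pearson's r between their log2 values over the 24 time points of each course, after a linear trend was removed. Such r values share libraries, depth and scaling, and carry no test. Over the 45 pairs the median r was 0.32 in KO and 0.35 in WT fibroblasts, where the near peaks that helped to choose the genes already favour a positive r. In slices, which the choice did not use, it was 0.36 in KO and 0.29 in WT, beside medians of at most 0.0058 over all pairs of 7223 genes. The highest pairs were Clk4 and Pnn in KO fibroblasts (0.70), Rsrp1 and Ogt in WT fibroblasts (0.83), Ogt and Ccnl2 in KO slices (0.87) and Clk1 and Ccnl1 in WT slices (0.93). With the trend kept, Clk1 and Ccnl1 in WT slices correlated with summed hepatocyte markers (0.51 and 0.54) and inversely with macrophage markers (-0.49 and -0.60). Ogt and Ccnl2 in KO slices correlated inversely with the share of the 10 most abundant genes (-0.58 and -0.37). The part of these measures in the pairs was not tested. When the 24 h wave was removed as well, the median r was 0.11 and 0.12 in KO and WT fibroblasts and 0.34 and 0.25 in KO and WT slices. Removing the wave lowered the fibroblast medians more than the slice medians.

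The slices separated the members more sharply. Clk1, Clk4, Rsrp1, Ogt, Ccnl1 and Ccnl2, singled out after their values were seen, each had a median r of 0.42 to 0.52 with the other 9 members in KO slices and 0.59 to 0.65 in WT slices. Pnn stood apart in KO slices, with a median r of -0.29 and a low of -0.65 with Ccnl2. Rbm3 in WT slices had a median r of -0.06 and was nearest to Cirbp (0.54), the other cold-inducible gene. In KO slices Rbm3 was nearest to Ogt (0.72), with 0.51 for Cirbp. In fibroblasts the r of Rbm3 with Cirbp was -0.10 in KO and 0.04 in WT. Fubp1 had medians of 0.23 in KO and 0.11 in WT slices.

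**Figure D5:**
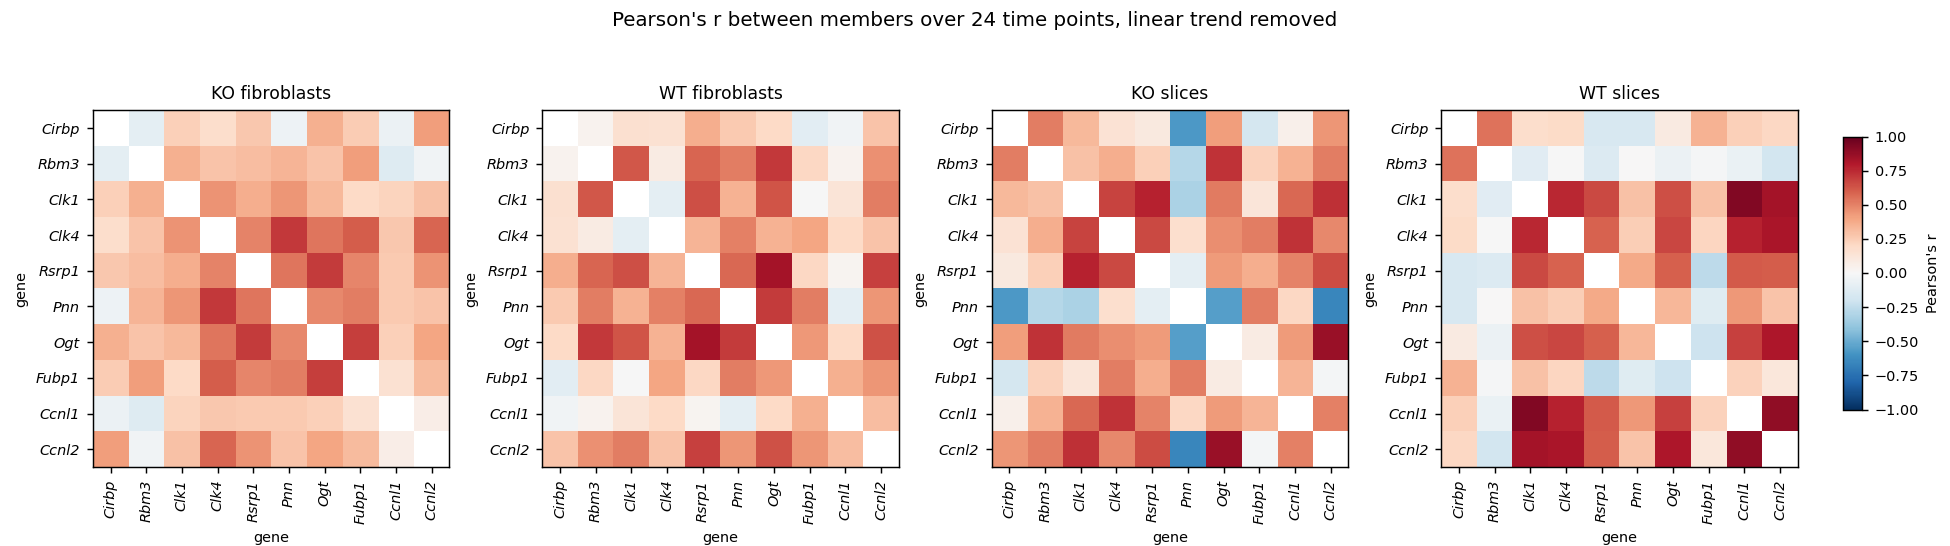
Pearson's r between members over 24 time points after a linear trend was removed, in KO and WT fibroblasts and KO and WT slices; red is positive, blue negative, and the diagonal is blank. Most pairs are positive, and Pnn in KO slices is the clearest exception, at -0.65 with Ccnl2.

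The same gene could also be followed between genotypes at matched times. In fibroblasts the KO and WT courses correlated at r = 0.75 for Ogt, 0.67 for Pnn, 0.63 for Ccnl2 and 0.59 for Rsrp1, at -0.14 for Cirbp, and at a median of 0.38 over the members. The genes were chosen partly for near peaks in both genotypes, so these fibroblast values restate the choice. With the wave removed the median was 0.11, beside 0.06 over all genes. In slices the order changed: Cirbp led with r = 0.63, above 99.9% of 7223 genes, and held 0.65 with the wave removed, followed by Pnn (0.39) and Rbm3 (0.32), while Fubp1 was at -0.34. The slice median was 0.21 over the members and 0.10 over all genes. The labels do not say what KO and WT slices of 1 time point shared beside the time.

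Other genes were ranked by their lowest r with the mean course of the members over the 4 long courses, among 7213 genes whose median was -0.32. Srsf5, an SR protein, came first with r = 0.80 in KO and 0.75 in WT fibroblasts and 0.78 in KO and 0.64 in WT slices. Tia1, an RNA-binding regulator of splicing, Srek1, a splicing regulator with serine- and arginine-rich stretches, Dhx57, a predicted RNA helicase, Arglu1 and the SR protein Srsf11 followed with lowest values of 0.61, 0.61, 0.54, 0.54 and 0.53. Ranked by likeness to Cirbp alone, no gene came as close: 4932438A13Rik led with a lowest r of 0.40, followed by Xrcc1 (0.35), Commd4 (0.33) and Yipf2 (0.32).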

How the data were processed

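RNA was extracted with Direct-zol, enriched for poly(A) RNA and made into libraries with a KAPA stranded kit, per the labels' protocols, and 50-base single-end reads were sequenced. The authors deposited FPKM values per gene, and per the submitters' processing notes TopHat2 2.1.0, Cuffdiff and GRCm38 were used. Their parameters and annotation could not be taken from the labels. The 336 labelled samples are sequencing runs, 3 per long-course time point and 2 per short sample, behind 48 columns in each long course and 24 in the short one. FPKM already divides by depth and length, so a few very abundant genes can lower all others. No value was a read count, and the depth is unknown.

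From these values log2(FPKM + 1) was computed, keeping genes that averaged 1 FPKM or more over the samples compared. Among fibroblast values 447 were marked as failed and 241 as too deep, which removed 118 genes, none a member. The models were fitted in limma 3.58.1 (R 4.3.3), whose two-sided moderated tests let the variance depend on the mean level. Each long course had a 24 h wave (cosine and sine terms) beside a straight trend, with both genotypes in 1 model for differences, and the short course had genotype by time. P-values were adjusted by the Benjamini-Hochberg method over all genes tested, at a threshold of 0.05, and genotype calls in the long courses also needed a difference of 1. All 10 members passed the filter in every comparison. Besides the members and Arntl, up to 3 called genes per list and comparison were named, by smallest p, and genes of most similar course by r. The members, lists and tests were chosen with earlier results of these data known. Alternatives covered the pseudocount, filter, scaling, trend term, days, segments of the course, single time points, replicates and blocks. Promoters came from RefSeq tables. The 24 h wave in fibroblasts was not tested for the members, since it chose them.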

Additional observations from a re-analysis of the deposited data

Results flagged for a closer look

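Pnn in the short liver course was marked because its change over time differed between genotypes. The largest of the 3 time differences, at T24, was 1.00 log2 units (KO minus WT change from T00), with no overlap between KO and WT at T00 or at T24, and 3 samples in each group.

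In slices, 3 genes of the lists around the members were marked because their 24 h waves differed between KO and WT (limma, adjusted p under 0.05). Of all genes 4.13% were called, and no list was tested against that share. The adjusted p-values lay near the threshold, at 0.0484 for Ccnk, 0.0424 for Hspb1 and 0.0485 for Dnaja1 (limma). Without the KO libraries of lowest correlation the KO waves of Ccnk and Dnaja1 were not called (adjusted p = 0.0796 and 0.126, limma). The size of the wave difference was 0.27 log2 units for Ccnk, a cyclin of transcription elongation, 1.22 for Hspb1, a small heat shock protein, and 0.63 for Dnaja1, a co-chaperone. Ccnk averaged 16.3 ± 3.83 FPKM in KO slices and 18.8 ± 1.97 FPKM in WT, Hspb1 79.5 ± 64.5 FPKM in KO and 68.2 ± 29.3 FPKM in WT, and Dnaja1 19.1 ± 9.09 FPKM in KO and 14.3 ± 3.08 FPKM in WT (SD, n = 24 time points each).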

How the results depend on the processing

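Of 970 member values under alternative settings, 851 kept their direction and side of the threshold, 82 lost a call, 24 gained one and 13 changed sign. This count leaves out the settings without single time points, and the trends of members whose trend was not called. The number of members with a KO slice rhythm was 1 as reported. It was 0 with no filter, without day 2 or day 3, in CT00 to CT33 or CT36 to CT69 alone and without the libraries of lowest correlation, and 2 after rescaling (Pnn and Ccnl2) or without day 1 (Ogt and Ccnl2). Leaving out single time points gave 0 to 2 there, 5 to 7 for the KO fibroblast trend, 3 to 3 for the WT one and 1 to 3 for the WT slice trend, where Pnn was lost at CT00, CT03, CT09, CT12, CT15, CT21, CT51, CT54, CT60, CT63 or CT69. The WT slice rhythm gained 1 member, Fubp1, with day as a factor. The WT slice trend kept 1 of 2 with no filter or without the libraries of lowest correlation, and 0 without day 1 or day 3 or in either segment of the course. Fibroblast trends fell to 0 members in both genotypes without day 1 and in each segment, and without day 3 to 1 (Clk1) in KO and 0 in WT. Called genotype differences went to 10 members in fibroblasts and 5 in slices with the adjusted p alone.

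In the short course the 5 genotype calls became 3 with no filter and 0 with 1 mean per genotype and number, and 1 to 4 with 1 replicate number left out. Without replicate number 3 only Ccnl2 remained, and without number 2 Cirbp and Ccnl2. Time calls were 4 to 7 in KO and 4 to 6 in WT, and the interaction call was lost (0) without any 1 number. With the number within genotype as a replicate block 2 genotype calls were left, and with the number shared between genotypes 4. Whether samples with the same number share an animal is not given in the labels. Their residuals correlated weakly, at -0.08 to 0.22 within a genotype and -0.11 to 0.09 between genotypes. Such weak values cannot decide whether animals were shared. Residuals of KO and WT libraries of 1 time point correlated at medians of -0.01 in fibroblasts and 0.05 in slices. The time point as a replicate block left the long-course counts at 1 and 0, and no other call count changed with a block.

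Among the counted values signs turned as follows. In slices, rescaling gave genotype differences of 0.145 for Cirbp, 0.0802 for Ogt, 0.146 for Fubp1 and 0.335 for Ccnl2. Ccnl2 was 0.0212 without day 1, 0.000225 in CT36 to CT69 alone and 0.00205 without the libraries of lowest correlation, and Pnn was -0.00108 in CT00 to CT33 alone. The KO fibroblast trend was 0.00400 for Fubp1 in CT00 to CT33 and 0.0860 for Ogt in CT36 to CT69. With 1 replicate number left out, the short genotype difference ran between -0.192 and 0.0493 for Rbm3, -0.208 and 0.138 for Rsrp1 and -0.0541 and 0.0810 for Ogt. With single time points left out, signs also turned for members that were not called. In the KO slice trend this happened at 10 time points for Ccnl2, 4 for Cirbp, 4 for Ccnl1 and 1 for Ogt. In the WT fibroblast trend it happened at 3 for Rsrp1 and 1 for Clk4, and in the slice genotype difference at 1 for Ccnl2. The cause of the turned signs was not tested. Depth is unknown, so counting error could not be set beside these changes.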

Other observations

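Heat shock genes driven by HSF1, the counterpart of the cold-inducible members, differed between genotypes in slices. Of 12, 3 were higher in KO (limma, adjusted p under 0.05 and a difference of at least 1): Hspa1a by 2.80 ± 0.39 log2 units (SE; 134.5 ± 133.1 FPKM in KO and 15.7 ± 16 FPKM in WT, SD, n = 24 each), Hspa1b by 2.80 ± 0.40 (240.7 ± 254.3 and 28.5 ± 29.7 FPKM) and Hsph1 by 1.29 ± 0.23 (178.7 ± 154.2 and 59.9 ± 32.0 FPKM). Hspa1a and Hspa1b are near-identical copies whose reads may not be fully told apart. Their levels differ in the values used, but their 2 calls may not be separate results. Over all genes 5.23% met both limits, 172 of 14560 of them higher in KO. The KO SDs are near the means, so levels varied widely between KO time points. Rescaled, the differences were 3.17, 3.19 and 1.68 for Hspa1a, Hspa1b and Hsph1, and without the 4 KO and 2 WT libraries of lowest correlation 2.43, 2.37 and 1.08, all still called, a choice made after seeing the data. Summed macrophage markers (median 167 FPKM in KO and 888 FPKM in WT) and fibroblast markers (44.2 and 187 FPKM) differed between the same slices. The hepatocyte sums were close (9260 and 8478 FPKM). The part of these markers was not tested. In fibroblasts Hspa1b ran the other way, with 6.64 ± 0.41 FPKM in KO and 19.1 ± 1.02 FPKM in WT.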
